A study of Homo sapiens with 4 samples.

Results

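The 10 genes described here encode the core of the p38 and JNK stress kinase cascade: the upstream kinase MAP3K3, the p38 branch (MAP2K3, MAP2K6, MAPK14, MAPKAPK2 and MAPKAPK3) and the JNK branch (MAP2K4, MAP2K7, MAPK8 and MAPK9). They were chosen by symbol, as sense-strand entries of the deposited gene tables, and all 10 were found among 57428 genes with such an entry. All 10 passed the filter on low counts and stood among 21238 tested genes. Nascent RNA was measured by Bru-seq, in which living cells incorporate bromouridine into new transcripts and an antibody then retrieves the labelled RNA. The cells were U2OS, a human osteosarcoma line, and every library came from a line that stably overexpresses GFP-DCP1a, a fusion of a decapping cofactor, kept under G418 selection. The hypertonic group (2 libraries) was in medium of 300 mM sodium, and the isotonic group (2 libraries) in medium of 150 mM sodium that received a matched volume of ordinary saline. All libraries were labelled with 2 mM bromouridine for 0.5 hours and taken 0 hours later. The labels give no length of exposure and do not say whether replicates were separate cultures, whether the line is 1 clone or which promoter drives the transgene. The p-values thus speak only to the scatter of these libraries, some of which may be technical.

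Mitogen-activated protein kinases work in relays: a MAP3 kinase phosphorylates a MAP2 kinase, which phosphorylates the MAP kinase on a threonine and a tyrosine of its activation loop. The p38 relay is the mammalian counterpart of the yeast Hog1 pathway and, like the JNK relay, is switched on by hyperosmotic shock within minutes. This switching is by phosphorylation of proteins that already exist. The values below concern new RNA of the kinase genes and carry no information on kinase activity. In bulk RNA, fewer cells expressing a gene and less RNA per cell cannot be told apart.

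Promoter sequences are shown for MAPK8 and MAP2K4, JNK-branch genes lower in both hypertonic libraries under most scalings, and for MAP3K3, whose fitted change had the opposite sign. Each run ends at the base before the start of the deposited gene, on the plus strand of GRCh38.p14 (RefSeq windows), and capitals mark a GC box (GGGCGG) or a CCAAT box (CCAAT) on either strand. They lie at chr10:48306427-48306638, chr17:12020627-12020823 and chr17:63622167-63622414.
MAPK8: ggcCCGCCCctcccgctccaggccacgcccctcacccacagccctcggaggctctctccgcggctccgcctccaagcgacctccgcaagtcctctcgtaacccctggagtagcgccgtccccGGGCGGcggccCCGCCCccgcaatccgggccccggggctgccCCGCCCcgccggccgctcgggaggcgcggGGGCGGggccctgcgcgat
MAP2K4: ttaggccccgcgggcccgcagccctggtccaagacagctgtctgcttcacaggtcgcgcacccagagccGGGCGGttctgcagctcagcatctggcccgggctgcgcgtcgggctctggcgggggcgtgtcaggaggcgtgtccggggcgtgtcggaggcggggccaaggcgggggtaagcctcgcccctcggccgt
MAP3K3: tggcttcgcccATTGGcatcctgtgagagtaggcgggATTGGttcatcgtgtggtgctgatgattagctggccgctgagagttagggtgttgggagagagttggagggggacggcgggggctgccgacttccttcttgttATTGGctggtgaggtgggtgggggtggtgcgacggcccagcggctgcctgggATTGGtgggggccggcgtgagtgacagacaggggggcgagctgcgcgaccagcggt
The MAPK8 run held 5 GC boxes and the MAP2K4 run held 1, with 0 CCAAT boxes in either. The MAP3K3 run held 4 CCAAT boxes and 0 GC boxes. Of the runs not printed, that of MAPK9 held 2 CCAAT and 2 GC boxes, MAP2K3 1 and 3, and MAP2K7 1 and 1. MAPKAPK3 held 0 and 2, MAP2K6 0 and 1, and MAPK14 0 and 0. The MAPK14 run was the shortest, at 119 bases, as its RefSeq start lies inside the deposited gene. The full MAPK14 window held both a CCAAT box and a GC box. The fitted changes of these unprinted genes were all negative, with and without a CCAAT box. No matches overlapped. RefSeq had windows of 300 bases for 9 of the 10 genes, 14 windows in all, and none for MAPKAPK2. A GC box stood in 10 of the 14, beside 44.95% of all 35116 windows, and a CCAAT box in 6, beside 34.6%. The cyclic AMP response element (TGACGTCA), which ATF2 and JUN can bind, stood in 0 of the 14, beside 1.85% of all windows. The AP-1 site (TGACTCA) stood in 1, beside 4.95%. The TATA box (TATAAA) stood in 1, beside 11.5%, and the ETS core (CCGGAAG) in 2, beside 10.3%. Matches were read on both strands and are descriptions of letters, not binding sites.

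The libraries held 23048409 to 44888307 counts, of which the sense strand took 88.4 and 90.6% in the hypertonic and 93.4% in both isotonic libraries. The labels mention actinomycin D, which makes reads strand-specific, for certain samples without naming them. Counts below as CPM (counts scaled to library size) use TMM scaling. DCP1A, the overexpressed gene, measured 314 and 199 CPM in hypertonic and 283 and 630 CPM in isotonic replicates 1 and 2. The mesenchymal marker VIM stood at 13.8 to 31.3 RPKM, while the defining markers of epithelial, blood and liver cells KRT5, CD3E and ALB had 0 counts in every library. APOA1 measured 0.236 and 0.387 RPKM in hypertonic and 0.0073 and 0.0175 RPKM in isotonic libraries, PTPRC 0.0193 to 0.0394 and EPCAM 0.0427 to 0.212 RPKM over all 4. Counts covered whole gene spans with their introns. Exons made up 4.65 to 15.2% of the span of 9 members and 48.4% of that of MAP2K7, the shortest.

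Across the cascade, 0 of 10 members differed between the groups in the edgeR quasi-likelihood test with Benjamini-Hochberg adjustment over all genes, where 0.00% of 21238 genes were called. The adjusted p of the members ran from 0.726 to 0.993. At an unadjusted p under 0.05 there were also 0 members, beside 8.89% of all genes higher and 2.01% lower, and DESeq2 and limma-voom called 0 members each, beside 3.44 and 0.00% of all genes. Fitted log2 fold changes (hypertonic over isotonic) were negative in 9 of 10 members, with a median of -0.36. All tested genes had a median of 0.04 with 47.6% negative, but in the 4828 protein-coding genes averaging 1 RPKM or more, called expressed here, 77.2% were negative and the median was -0.33. Only 5 members (MAPK8, MAPKAPK2, MAP2K4, MAP2K3 and MAPK14) reach that level, with a median of -0.48, and the other 5 have a median of -0.22. By total count 6 and by upper quartile 8 members were negative, and the medians of all genes were 0.26 and 0.23. Relative to the median of all genes, the members' median was -0.40 with TMM, -0.46 by total count and -0.40 by upper quartile.

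Precision limits what these values can show. Standard errors were 0.37 to 0.81, and the 95% interval of every member held 0. For 9 members it also held a log2 fold change of -1, and for 3 it held 1. For those 9 genes, neither the absence of a change nor a fall of 1 log2 unit can be set aside with 2 libraries per group.

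**Figure D1:**
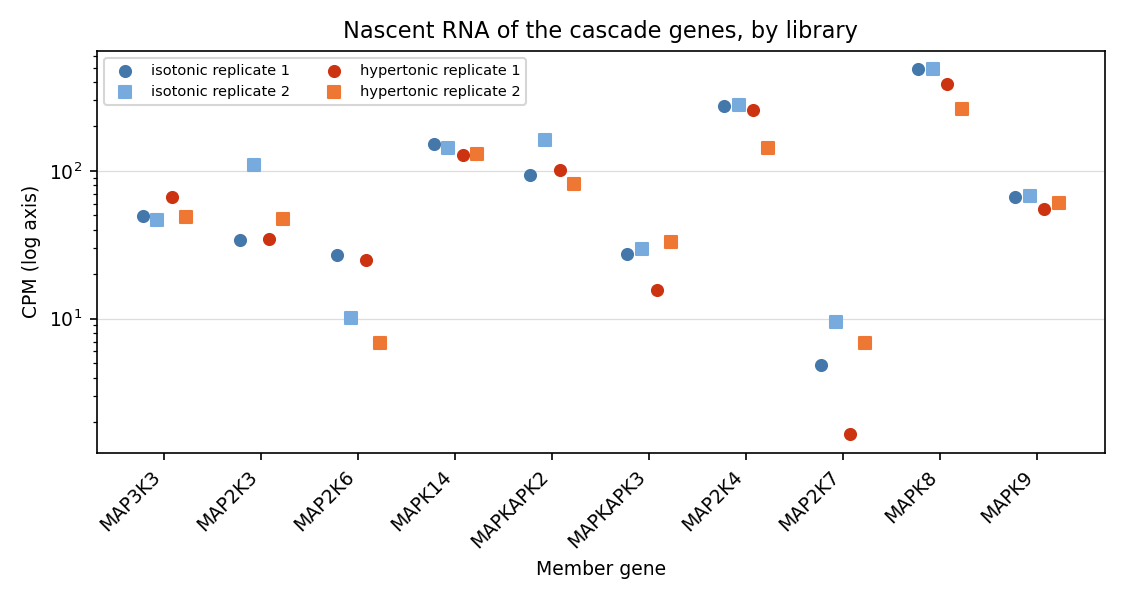
CPM (log axis) of the 10 cascade genes in each library; circles are replicate 1 and squares replicate 2, blue isotonic and red or orange hypertonic. MAPK8 and MAP2K4 show 2 nearly level isotonic points, with both hypertonic points lower, while MAP2K3, MAP2K6 and MAP2K7 scatter within groups.

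MAP3K3 (MEKK3; ENSG00000198909, chromosome 17, 63622415 to 63696303, plus strand) sits at the top of the relay and, on the scaffold CCM2, couples osmotic stress to p38. It measured 66.6 and 48.8 CPM in hypertonic and 49.4 and 46.3 CPM in isotonic replicates 1 and 2. The groups overlapped with TMM scaling, with hypertonic replicate 1 the highest library. The log2 fold change was 0.27 ± 0.42 (SE, n = 2 per group; edgeR, adjusted p = 0.954), the single positive value among the members. Without hypertonic replicate 1 the value was -0.0053. By total count, upper quartile and the deposited RPKM, both hypertonic libraries lay above both isotonic ones.

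The p38 branch opens with MAP2K3 (MKK3) and MAP2K6 (MKK6), the dual-specificity kinases that activate p38. MAP2K3 (ENSG00000034152, chromosome 17, 21284672 to 21315240, plus strand) measured 34.6 and 47.5 CPM in hypertonic and 33.8 and 109.7 CPM in isotonic replicates 1 and 2. Isotonic replicate 2 stood apart from the other libraries, and isotonic replicate 1 was the lowest of all. The log2 fold change was -0.80 ± 0.57, and 0.24 without isotonic replicate 2. MAP2K6 (ENSG00000108984, chromosome 17, 69414698 to 69543331, plus strand) measured 24.9 and 6.88 CPM against 26.8 and 10.1 CPM. In each group replicate 1 was the higher, by 1.84 log2 units in hypertonic and 1.40 in isotonic libraries, so the spread within groups exceeded the fitted change of -0.22 ± 0.74. Leaving out hypertonic replicate 2 gave 0.42, and leaving out isotonic replicate 1 gave 0.64.

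MAPK14 (p38 alpha; ENSG00000112062, chromosome 6, 36027677 to 36111236, plus strand), the ubiquitous p38 kinase, had the smallest standard error of the members. It measured 128 and 131 CPM in hypertonic and 152 and 142 CPM in isotonic libraries. The groups did not overlap with TMM scaling, yet the log2 fold change was only -0.19 ± 0.37 (95% interval -1.02 to 0.65), and it was 0.04 by total count and 0.0035 by upper quartile. MAPKAPK2 (MK2; ENSG00000162889, chromosome 1, 206684944 to 206734283, plus strand), which p38 activates and which phosphorylates HSP27 and RNA-binding proteins, measured 102 and 81.1 CPM against 93.2 and 161.5 CPM. Isotonic replicate 2 was the highest and the groups overlapped, at -0.48 ± 0.42, or -0.07 without isotonic replicate 2 and -0.85 without isotonic replicate 1. MAPKAPK3 (MK3; ENSG00000114738, chromosome 3, 50611908 to 50649297, plus strand), a close relative of MK2, measured 15.5 and 33.0 CPM against 27.5 and 29.8 CPM. The hypertonic libraries lay on either side of the isotonic ones, at -0.24 ± 0.54. The sign turned without hypertonic replicate 1 (0.17) and by total count (0.05).

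The JNK branch is fed by MAP2K4 (MKK4) and MAP2K7 (MKK7), which favour the tyrosine and the threonine of the JNK activation loop, respectively. MAP2K4 (ENSG00000065559, chromosome 17, 12020824 to 12143830, plus strand) measured 257 and 142 CPM in hypertonic and 275 and 278 CPM in isotonic replicates 1 and 2. Both hypertonic libraries were lower, replicate 1 only slightly. The log2 fold change was -0.47 ± 0.43 (adjusted p = 0.848). Without hypertonic replicate 1 it was -0.999 ± 0.23 (edgeR, adjusted p = 0.0949, where 0.00% of genes were called), and without hypertonic replicate 2 it was -0.11. MAP2K7 (ENSG00000076984, chromosome 19, 7903843 to 7914478, plus strand) had the fewest reads, with 39 and 174 counts in hypertonic and 198 and 183 counts in isotonic replicates 1 and 2. In CPM these were 1.65 and 6.84 against 4.86 and 9.44. Hypertonic replicate 1 was far below the rest and the groups overlapped, at -0.75 ± 0.81. Without hypertonic replicate 2 the gene passed the test at -2.11 ± 0.62 (edgeR, adjusted p = 0.0379), a setting under which 21.4% of all genes did. With 1 library left in a group, the spread comes from the other group's pair and the lone library is assumed to vary like it. Without hypertonic replicate 1 the value was -0.09.

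MAPK8 (JNK1; ENSG00000107643, chromosome 10, 48306639 to 48439360, plus strand), a ubiquitous JNK, had the highest level per length and the smallest p of the members. It measured 389 and 264 CPM in hypertonic and 488 CPM in each isotonic library. The hypertonic libraries were lower and differed from each other by 0.56 log2 units, the isotonic ones by 0.002. The log2 fold change was -0.58 ± 0.41 (95% interval -1.51 to 0.34; edgeR, adjusted p = 0.726). With hypertonic replicate 1 left out it was -0.92 ± 0.21 (edgeR, adjusted p = 0.0947), and with replicate 2 left out -0.33. MAPK9 (JNK2; ENSG00000050748, chromosome 5, 180233143 to 180292099, minus strand), also ubiquitous, measured 54.9 and 60.3 CPM against 66.04 and 67.4 CPM. Both hypertonic libraries were lower by a small margin, at -0.21 ± 0.40, and the value was 0.02 by total count.

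With TMM the groups were apart, hypertonic below isotonic, for 4 of 10 members (MAPK14, MAP2K4, MAPK8 and MAPK9) and hypertonic above isotonic for 0. The shares of all tested genes were 17.5% below and 22.5% above, and of expressed protein-coding genes 38.7% and 5.32%. Of the 5 members at that level 3 lay below, and of the 5 under it 1, MAPK9. By total count, and in the deposited RPKM, 2 members (MAP2K4 and MAPK8) lay below and 1 (MAP3K3) above. By upper quartile, 1 member (MAPK8) lay below and 1 (MAP3K3) above. MAPK8 was thus the member whose groups stayed apart under all 5 scalings (TMM, RLE, total count, upper quartile and RPKM). The shares of all genes were counted with TMM only. The counts of members under the other scalings, and across all 5, thus have no such share to be judged by.

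**Figure D2:**
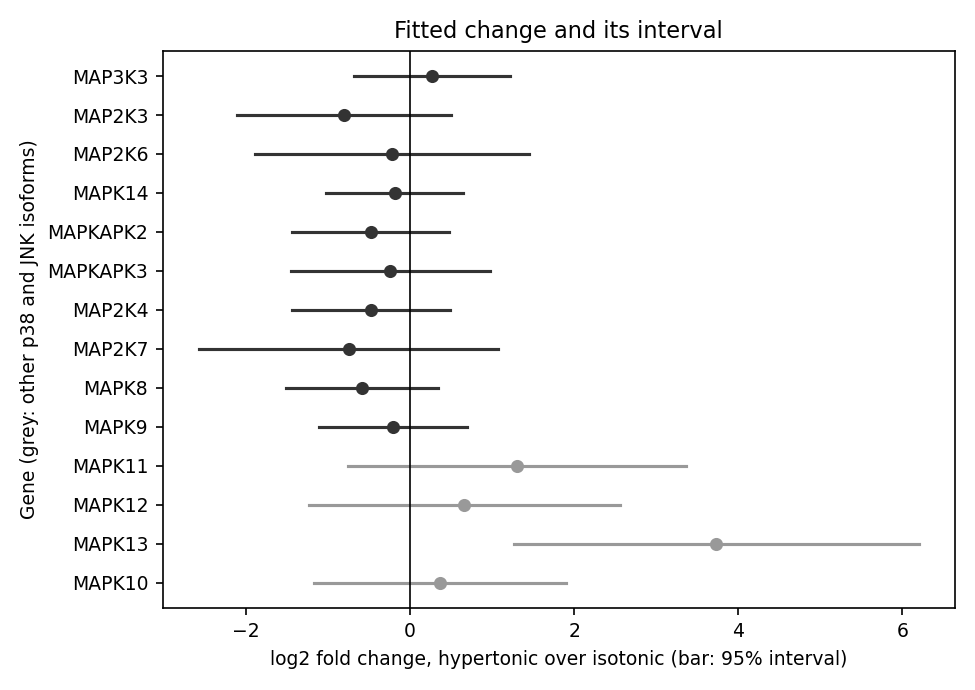
Fitted log2 fold change, hypertonic over isotonic, with its 95% interval, for the 10 members (dark) and the other p38 and JNK isoforms (grey). Every dark interval crosses 0, with MAP3K3 the single member to the right of 0, and MAPK13 stands at 3.73 with the widest interval.

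The libraries did not vary alike across members. On profiles of log2 CPM centred over the 4 libraries, MAPK14 and MAPK9 were the closest members, with a root mean square distance of 0.06, followed by MAP2K4 and MAPK8 at 0.11. MAP2K6 was farthest from any other member, at 0.62 from MAP2K4. Over all tested genes, UBE3A, a ubiquitin ligase, lay nearest to MAPK8 (distance 0.009), with 431 and 292 CPM in hypertonic and 538 and 532 CPM in isotonic libraries. SPOPL followed at 0.019 and MVB12B at 0.021. With 4 libraries many genes share such a profile.

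Levels per length were compared on the deposited RPKM. In isotonic medium MAPK8 was highest at 2.88 ± 0.19 RPKM (SD, n = 2), above the range of MAP2K4 (1.77 ± 0.10) and MAPK14 (1.38 ± 0.16). MAPKAPK2 (1.99 ± 0.64) and MAP2K3 (1.79 ± 1.25) ranked between MAPK8 and MAP2K4, but their ranges overlapped each other and that of MAP2K4. The range of MAP2K3 (0.904 to 2.68 RPKM) also overlapped those of MAPK14 and MAPK9. MAPK9 followed at 0.885 ± 0.044 RPKM, apart from its neighbours in the order. MAPKAPK3 (0.598 ± 0.005) lay above the range of MAP3K3 (0.511 ± 0.056), while the range of MAP2K7 (0.518 ± 0.205) overlapped both. MAP2K6 was lowest at 0.117 ± 0.080 RPKM. In percentiles of tested genes the isotonic means ran from 26.1 for MAP2K6 to 91.6 for MAPK8.

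In hypertonic medium MAPK8 was again highest (1.93 ± 0.09 RPKM) and MAP2K6 lowest (0.093 ± 0.058), but apart from MAPK8 and MAPKAPK2, and MAPK9 and MAP3K3, neighbouring members overlapped. The middle of the order held MAPKAPK2 (1.47 ± 0.10), MAP2K4 (1.26 ± 0.24), MAPK14 (1.26 ± 0.31) and MAP2K3 (1.12 ± 0.49). Summed over the JNK branch, RPKM was 4.16 and 4.53 in hypertonic and 6.13 and 5.95 in isotonic replicates 1 and 2, with the groups apart. Summed over the p38 branch, it was 3.63 and 5.37 against 4.71 and 7.04, with the groups overlapping. The log2 ratio of the p38 to the JNK sum, which no scaling between libraries can move, was -0.20 and 0.24 against -0.38 and 0.24 and overlapped. With 2 against 2 libraries an exact two-sided permutation test cannot go below p = 0.333, and no other test of these sums and ratios was run.

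**Figure D3:**
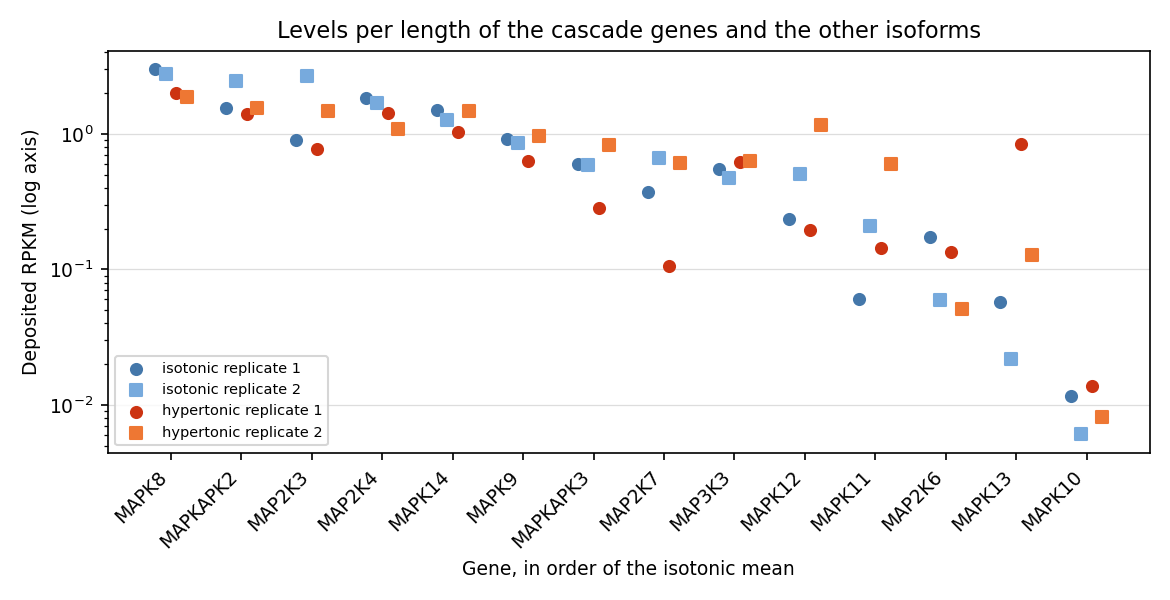
Deposited RPKM (log axis) of the 10 members and the 4 other p38 and JNK isoforms in each library, ordered by the isotonic mean. MAPK8 leads in both groups, and MAPK13 stands at 0.0579 and 0.0217 RPKM in isotonic and 0.837 and 0.128 RPKM in hypertonic libraries.

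Within-library ratios of paralogues gave a second view free of scaling. MAPK8 exceeded MAPK9 by a log2 RPKM ratio of 1.65 and 0.96 in hypertonic and 1.72 and 1.68 in isotonic replicates 1 and 2. The hypertonic ratios were the lower ones, replicate 1 by little. MAP2K4 exceeded MAP2K7 by 3.76 and 0.84 against 2.299 and 1.35, and MAPKAPK2 exceeded MAPKAPK3 by 2.31 and 0.90 against 1.36 and 2.04. MAP2K3 exceeded MAP2K6 by 2.52 and 4.83 against 2.38 and 5.48. In these 3 pairs the groups overlapped.

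MAPK14 was the main source of new p38 RNA in every library, but its share of the 4 isoforms differed between the groups. It made up 46.9 and 43.8% of the summed RPKM of MAPK14, MAPK11, MAPK12 and MAPK13 in hypertonic and 80.9 and 63.2% in isotonic replicates 1 and 2. The groups did not overlap. The rest was divided unevenly among the other isoforms: in hypertonic replicate 1 MAPK13 took 37.8%, and in replicate 2 MAPK12 took 34.6% and MAPK11 17.7%. In isotonic libraries MAPK13 took 3.15 and 1.08%. On the same strand, MAPK11 starts 4.59 kb after PLXNB2 and MAPK12 starts 1.89 kb after MAPK11. The part of reads from upstream genes in these p38 shares was not tested. Of the JNK isoforms, MAPK8 took 75.5 and 65.8% against 76.4 and 76.1%, and MAPK10, a mainly neuronal kinase, at most 0.521%.

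**Figure D4:**
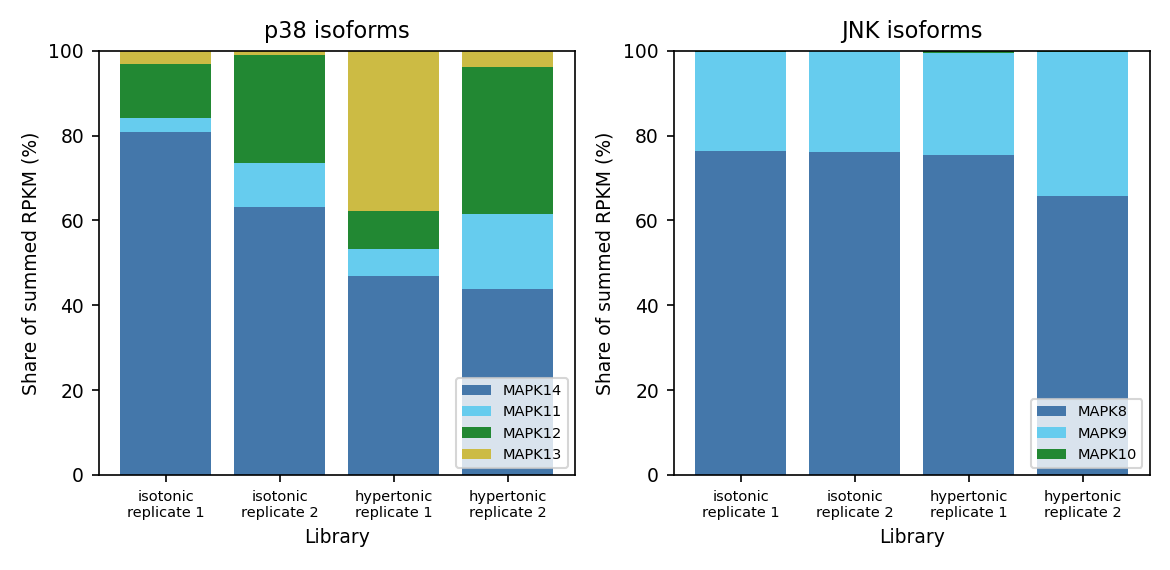
Stacked shares (%) of summed RPKM of the p38 isoforms (left) and JNK isoforms (right) in each library. The MAPK14 share is 63.2 and 80.9% in isotonic and 43.8 and 46.9% in hypertonic libraries, with MAPK13 filling much of hypertonic replicate 1.

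MAPK13 (p38 delta; ENSG00000156711) starts 19.1 kb beyond the end of MAPK14 on the same strand, with no same-strand gene between them. It held 414 and 49 counts in hypertonic and 41 and 8 counts in isotonic replicates 1 and 2, or 17.5 and 1.93 CPM against 1.01 and 0.413 CPM. Both hypertonic libraries were higher, replicate 1 by far. The log2 fold change was 3.73 ± 1.09 and did not pass in edgeR (adjusted p = 0.265). It passed in DESeq2 (adjusted p = 0.0029, where 3.44% of genes were called), with no filter (edgeR, adjusted p = 0.0017, where 2.45% were called) and with the replicate number as a block (edgeR, adjusted p = 0.0494, where 1.81% were called). It also passed without hypertonic replicate 2, at 4.54 (edgeR, adjusted p = 0.0011, where 21.4% were called), and was 1.35 without hypertonic replicate 1 (adjusted p = 0.307). Over all alternatives run its adjusted p reached from 0.0011 to above 0.99. MAPK14 itself stood at -0.20 and -0.17 log2 units from its isotonic mean in the hypertonic libraries.

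The next same-strand gene downstream was read for every member, at 1.67 to 245.5 kb. Both hypertonic libraries lay above both isotonic ones for 3 of 10 and below for 1. Of these 10 genes 7 were tested, and all 4 are among them, beside 22.5% above and 17.5% below of all tested genes. Besides MAPK13, the higher ones were AC046185.3, 4.54 kb after MAP3K3, with 17 and 38 counts in hypertonic and 2 and 2 counts in isotonic libraries, and KCNJ12, 61.0 kb after MAP2K3. KCNJ12, a potassium channel gene with near-identical copies between which reads may be split, held 39 and 24 counts against 0 and 2 counts. The lower one was AC104115.1, after MAPK9, with 12 and 10 counts against 25 and 11 counts. In the other direction, 0 of 10 members started within 10 kb after a same-strand gene of at least 4 times their isotonic RPKM, a position in which reads of an upstream gene could enter. Among the 67 genes of the other lists, 4 did, MAPK11, MAPK8IP1, MAPK8IP2 and MAPK8IP3, named here after their positions were seen.

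Reads on the strand opposite to the members were enough to test for 3 of them, MAP3K3, MAP2K7 and MAPK8. All antisense counts and shares rest on the 4 libraries being strand-specific, which the labels do not state for each. MAP3K3 had 320 and 119 antisense counts in hypertonic and 16 and 15 in isotonic replicates 1 and 2, which is 16.9 and 8.74% against 0.788 and 1.64% of the reads of both strands. MAP2K7 had 27 and 15 counts against 3 and 2, or 40.9 and 7.94% against 1.49 and 1.08%, where the sense count of 39 in hypertonic replicate 1 enters the first share. MAPK8 had 38 and 17 counts against 20 and 7, at most 0.411% of its reads. The other 7 members had at most 7 antisense counts in any library.

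Antisense entries were tested over all 9827 with enough counts, a test chosen after the data were seen, scaled by the sense library sizes. The MAP3K3 entry was higher by a log2 fold change of 3.98 ± 0.88 (edgeR, adjusted p = 0.0091) and the MAP2K7 entry by 3.27 ± 0.95 (adjusted p = 0.0266), while MAPK8 stood at 1.39 ± 0.85 (adjusted p = 0.245). In this test 19.4% of all antisense entries were called higher (36.2% at an unadjusted p under 0.05) and the median was 1.31. The groups were apart, hypertonic above isotonic, for 62.9% of them. Scaled by TMM factors of the antisense entries, 0.00% were called, with MAP3K3 at 2.75 ± 0.75 (adjusted p = 0.1002) and MAP2K7 at 2.09 ± 1.07 (adjusted p = 0.391). The calls of both held by total sense count (edgeR, adjusted p = 0.0054 and 0.0132), where 31.6% of all antisense entries were called higher. They also held with the replicate number as a block (edgeR, adjusted p = 0.0038 and 0.0372), where 15.6% were. With either isotonic library left out, both calls were lost, as were most calls over all entries. The MAP2K7 call was also lost without hypertonic replicate 1. The log2 fold changes were 3.53 (MAP3K3) and 2.98 (MAP2K7) without isotonic replicate 1, and 4.48 and 3.44 without isotonic replicate 2. They were 3.01 and 2.69 without hypertonic replicate 1, and 4.58 and 3.67 without hypertonic replicate 2. LIMD2 (63695902 to 63700685), on the opposite strand, overlaps the last bases of MAP3K3 and measured 1.39 and 3.81 CPM in hypertonic and 1.45 and 3.15 CPM in isotonic libraries. AC010336.4, an annotated antisense RNA inside MAP2K7, held 11 and 3 counts against 0 and 0 counts. The bases shared with these 2 genes were not counted in the antisense entries. The MAP2K7 entry counted 9765 of 10636 bases, with AC010336.4 spanning 871. The MAP3K3 entry counted 72974 bases, against 73376 for its sense entry. The sense share of all counts was also lower in the hypertonic libraries (88.4 and 90.6%) than in the isotonic ones (93.4% in both). The part in the antisense reads of these genes beyond their annotated bases, and of the lower sense share, was not tested.

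**Figure D5:**
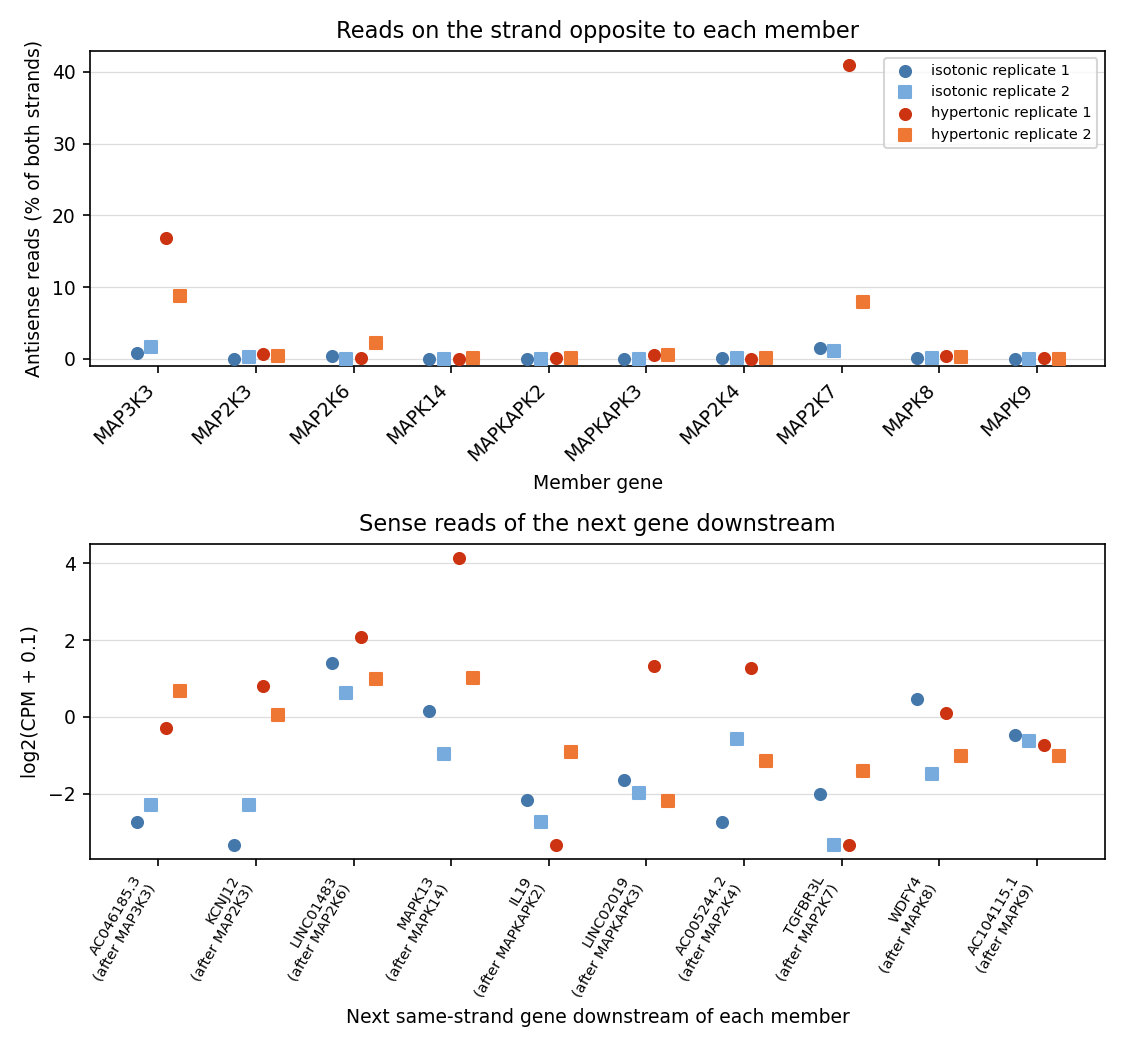
Top, antisense reads as a percentage of the reads of both strands for each member and library. Bottom, log2(CPM + 0.1) of the next same-strand gene downstream of each member. MAP3K3 and MAP2K7 stand out on top, at 8.74 to 16.9% and 7.94 to 40.9% in hypertonic libraries, and MAPK13, KCNJ12 and AC046185.3 at the bottom.

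The 7 lists of neighbouring pathway genes were read from the same fit, and in each of them edgeR called 0 genes. At an unadjusted p under 0.05, 3 genes were higher (MAPK13, MKNK1 and the JNK scaffold MAPK8IP1) and 2 lower (TRAF6 and DUSP1) among 65 tested, beside 8.89% higher and 2.01% lower of all genes. MAPK8IP1 starts 2.40 kb after CRY2, the active same-strand gene upstream of it. DESeq2 called 1 gene of the lists (MAPK13) and limma-voom 0. Among the 16 other MAP3 kinases, 9 were negative and the median was -0.05. MAP3K7 (TAK1), which relays cytokine signals to p38 and JNK, had their smallest p, at 109 and 73.2 CPM against 134 and 185 CPM (-0.81 ± 0.41; edgeR, adjusted p = 0.546). Among 5 other downstream kinases 2 were negative and the median was 0.04. MKNK1, a kinase of the initiation factor eIF4E, measured 27.5 and 8.41 CPM against 5.22 and 5.26 CPM (1.77 ± 0.70; edgeR, adjusted p = 0.396). Without hypertonic replicate 2 the value of MKNK1 was 2.38, and without hypertonic replicate 1 it was 0.65. MKNK1 starts 3.42 kb after MOB3C on the same strand. Their isotonic means were 0.0874 RPKM for MKNK1 and 0.337 RPKM for MOB3C, short of the cut of 4 times. The part of reads from MOB3C was not tested.

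Scaffolds and adaptors had 9 of 14 tested genes negative and a median of -0.23. TRAF6, an adaptor upstream of TAK1, measured 24.9 and 37.6 CPM against 78.9 and 58.3 CPM (-1.13 ± 0.45; edgeR, adjusted p = 0.403). CCM2, the scaffold of MAP3K3, chosen for that role, stood at -0.07 ± 0.39. Of the substrate transcription factors, 7 of 10 were negative with a median of -0.19, and MEF2D, a p38 substrate, stood at -0.71 ± 0.49 (edgeR, adjusted p = 0.712). Of 4 phosphatases acting on p38 and JNK, 2 were negative, and DUSP1 measured 67.1 and 20.9 CPM against 53.8 and 291 CPM (-1.97 ± 0.79; edgeR, adjusted p = 0.409). Isotonic replicate 2 was far above the rest, and without it DUSP1 stood at -0.33. With no filter it passed (edgeR, adjusted p = 0.0035), where 2.45% of all genes did. The ERK cascades, the growth-factor relays of the same family, had 9 of 12 genes negative and a median of -0.24. Without hypertonic replicate 2, TRAF6 stood at -1.47 and MEF2D at -1.23, and without hypertonic replicate 1 at -0.90 and -0.36. Leaving out isotonic replicate 1 gave -0.93 and -1.08, and leaving out isotonic replicate 2 gave -1.37 and -0.32. The 4 other p38 and JNK isoforms were all positive, with a median of 0.98, beside 11133 positive of 21238 tested genes. Their levels were low, with isotonic means of 0.0088 (MAPK10) to 0.371 RPKM (MAPK12), and the groups were apart for MAPK13 only. These list medians move with the scaling: by total count they were 0.19 for the other MAP3 kinases, -0.03 for scaffolds and adaptors, -0.04 for substrate transcription factors, -0.31 for phosphatases, 0.39 for the other downstream kinases, -0.05 for the ERK cascades and 1.33 for the isoforms.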

How the data were processed

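Per the submitters' processing notes, reads were handled with STAR 2.5.3a, Bowtie2 2.3.3, bedtools 2.16.2 and CASAVA 1.8.2 on hg38 (GRCh38), in unstated roles. Which annotation release was used is not stated there. For each gene and strand the authors deposited an estimated count, an expected count that need not be whole, and an RPKM value, in tables without header whose meaning was read from the values. Deposited RPKM equals the count per counted length and per 1 constant per library. Shared-region entries (3.11 to 3.48% of counts), 45 pseudoautosomal copies and 259 genes without a GENCODE 29 match, which gave strand, were left out.

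Expected counts were rounded. The test over all sense genes was edgeR 4.0.16, run under R 4.3.3 (TMM factors 0.947, 1.22, 0.974 and 0.887; default filter; quasi-likelihood; Benjamini-Hochberg at 0.05), without a replicate block. A standard error is the log2 fold change divided by the square root of F. Log2 CPM used a prior count of 2, and RPKM on the log scale used a pseudocount of 0.1. DESeq2 1.42.0, limma 3.58.1 (voom and RPKM), other scalings, no filter, the block and leaving out each library were alternatives. The fits were tested on simulated data.

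The members, lists and tests were chosen with earlier results of these data known. Named genes were all members, the gene of smallest p in each list, DCP1A, the other p38 and JNK isoforms, the 3 genes most like the member of smallest p and neighbours whose reads could mix. The smallest-p gene of 1 list is not reported here. Figures used matplotlib 3.10.9. Counts are of reads, so sampling intervals would cover counting error only.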

Additional observations from a re-analysis of the deposited data

Results flagged for a closer look

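The antisense strand lay outside the main measurement, and 3 members had antisense entries above 3 counts in both hypertonic libraries and above both isotonic ones. The MAP3K3 antisense entry averaged 9.10 CPM in hypertonic and 0.583 CPM in isotonic libraries. The MAP2K7 antisense entry averaged 0.865 and 0.0884 CPM, respectively. The MAPK8 antisense entry averaged 1.14 and 0.426 CPM. Over all tested antisense entries, 62.9% had both hypertonic libraries above both isotonic ones.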

How the results depend on the processing

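The number of members past the threshold was 0 under the other 3 scalings, DESeq2, limma-voom, limma on log2(RPKM + 0.1), no filter and the replicate block, and 0 to 1 when a library was left out (MAP2K7, without hypertonic replicate 2). Of the values of single members under the alternatives, 110 kept their sign and their side of the threshold, 9 changed sign and 1 passed. Sign changes by scaling were MAPK14 (0.0351 by total count and 0.00351 by upper quartile), MAPKAPK3 (0.05004 by total count) and MAPK9 (0.0189 by total count). Leaving out a library gave ranges of -0.00527 to 0.47 for MAP3K3, -1.45 to 0.24 for MAP2K3, -1.46 to 0.64 for MAP2K6 and -0.88 to 0.17 for MAPKAPK3.

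The median of the members moved by more than the SD between the medians of the hypertonic libraries (0.009) under each alternative. That SD rests on 2 medians that lay close together (-0.28 and -0.26), so passing it is a weak mark of change. It does not measure the uncertainty of the members, whose standard errors were 0.37 to 0.81. The members' median was -0.39 with RLE, -0.20 by total count, -0.17 by upper quartile and -0.39 with DESeq2. With limma-voom it was -0.43, on RPKM -0.30, with no filter -0.42 and with the replicate block -0.39. When a library was left out it was -0.42 to -0.23. The cause was not tested. Over all genes, edgeR called 916 with no filter, 384 with the block, 0 to 4918 when a library was left out and 0 with the settings of the report, and DESeq2 called 731. The shared replicate numbers are not said to pair libraries, and the differences between replicates 1 and 2 correlated at 0.0247 between the groups across 21238 genes. MAP2K7 had 39 to 198 counts per library and is the member that depth limits most.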
